A study of Mus musculus with 12 samples.

Results

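Alas1, G6pdx and Gusb are 3 of the 20 reference genes on a panel of 770 genes that was measured in A20 tumors. They were chosen by their measured values, with counts scaled to 13 of the other reference genes. On that scale these 3 were higher on average in tumors injected with GLA-SE or SE, described below, than with PBS, and followed macrophage genes. Their differences between groups and their correlations with macrophage genes are therefore given as a description, without a test. The A20 line is a mouse B-cell lymphoma. A20 cells were implanted under the skin of female Balb/c mice, and injection into the established tumor began about 7 days later. The tumors were injected with PBS (n = 4), with GLA-SE (n = 4) or with SE alone (n = 4), 12 tumors in all. GLA is an agonist of Toll-like receptor 4, SE is the stable emulsion that carries it, and the dose of GLA-SE was 10 µg GLA in 50 µl of 2% SE. All tumors received 3 injections, given every other day, and were collected 2 h after the last. RNA came from the whole tumor, so more cells of a type and more RNA per cell cannot be told apart.

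A reference gene is one whose RNA is assumed to stay level, so that it can correct for the amount and quality of RNA. Alas1 encodes the mitochondrial enzyme of the first and rate-limiting step of haem synthesis. G6pdx, on the X chromosome, encodes glucose-6-phosphate dehydrogenase, which opens the pentose phosphate pathway and supplies NADPH. Gusb encodes beta-glucuronidase, a lysosomal enzyme that breaks down glycosaminoglycans. Macrophages are known for a large lysosomal compartment and for using NADPH to make reactive oxygen, and they also handle haem and iron from ingested cells.

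The promoters of the 3 genes are shown so that the sequences of the 3 genes can be set side by side. Each window, from RefSeq on GRCm38.p6, holds 250 bases before and 50 from the annotated start, all on the minus strand, with base 251 as the start, and all 3 genes had an entry. The windows are chr9:106247905-106248204 for Alas1, chrX:74428831-74429130 for G6pdx and chr5:130003000-130003299 for Gusb. Capitals mark matches to the motifs searched, on either strand.
Alas1: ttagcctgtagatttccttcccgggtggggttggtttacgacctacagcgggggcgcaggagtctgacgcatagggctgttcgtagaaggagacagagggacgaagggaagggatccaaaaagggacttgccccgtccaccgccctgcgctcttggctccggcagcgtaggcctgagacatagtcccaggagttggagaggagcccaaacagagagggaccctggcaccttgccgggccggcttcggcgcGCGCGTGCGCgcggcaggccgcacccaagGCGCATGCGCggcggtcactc
G6pdx: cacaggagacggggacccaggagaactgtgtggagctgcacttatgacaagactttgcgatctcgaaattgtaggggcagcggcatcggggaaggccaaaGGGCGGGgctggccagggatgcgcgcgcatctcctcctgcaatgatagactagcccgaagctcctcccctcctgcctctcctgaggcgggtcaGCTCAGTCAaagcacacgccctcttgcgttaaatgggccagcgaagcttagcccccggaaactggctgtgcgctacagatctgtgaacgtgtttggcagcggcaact
Gusb: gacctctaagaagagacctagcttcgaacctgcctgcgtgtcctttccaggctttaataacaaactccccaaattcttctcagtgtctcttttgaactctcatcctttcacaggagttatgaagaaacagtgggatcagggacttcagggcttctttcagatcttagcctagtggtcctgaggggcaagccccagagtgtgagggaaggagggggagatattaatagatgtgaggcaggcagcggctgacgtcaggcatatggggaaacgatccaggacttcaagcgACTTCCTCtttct
The searched letters were TGACNNNGC (core of the antioxidant response element), TCACGTG (core of the CLEAR element of lysosomal genes), GCGC followed by any 2 bases and GCGC (NRF1), GAGGAAGT (PU.1, a myeloid factor), GGGCGGG (GC box), CCAAT and TATAAA. The Alas1 window held the NRF1 letters at bases 251 to 260 and 280 to 289, which read as a match on both strands. A second annotated start of Alas1 lies downstream, and there the same matches begin at -224 and -195. The G6pdx window held a GC box at bases 101 to 107 and, on the opposite strand, the antioxidant core at bases 194 to 202. The Gusb window held the PU.1 letters on the opposite strand at bases 288 to 295. Of 32817 mouse promoter windows of this length, 6.22% held the NRF1 letters, 25.6% the GC box, 12.4% the antioxidant core and 3.20% the PU.1 letters. The CLEAR core, found in 3.76% of windows, was in none of the 3, and no motif was shared by them. GC content was 65.3% for Alas1, 60% for G6pdx and 49.7% for Gusb, against a median of 52.7%. A match is a description of the letters and does not show that a factor binds there.

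The deposited values were counts of barcoded probes. The total count was 812522 to 1086462 in the PBS tumors, 1186487 to 1612415 in the GLA-SE tumors and 810260 to 1268512 in the SE tumors. The geometric mean of the 13 scaling genes, which are Abcf1, Edc3, Eef1g, Hdac3, Hprt, Nubp1, Oaz1, Polr1b, Polr2a, Ppia, Sap130, Sdha and Sf3a3, was 924.2 counts in SE tumor 4 and 1490.8 to 2750.4 in the other 11. SE tumor 4 also held the highest deposited count of the SE tumors for 241 of 750 panel genes. The differences and correlations that this tumor moved most are also given without it. The B cell genes that mark the lymphoma, a list of 8, were present in every group, with summed scaled counts of 18760 to 21898 in the PBS tumors, 12809 to 21691 in the SE tumors and 14926 to 17207 in the GLA-SE tumors. The deposited counts of Alas1, G6pdx and Gusb were 415 to 1390 in any tumor.

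Before any scaling, Alas1 counts were 508, 423, 530 and 553 in PBS tumors 1 to 4. They were 561, 628, 795 and 597 in the GLA-SE tumors. They were 586, 415, 453 and 485 in the SE tumors. All GLA-SE tumors thus lay above all PBS tumors without rescaling, whereas the SE and PBS tumors overlapped. Scaled to the 13 reference genes, Alas1 was 487, 398, 390.45 and 437 in the PBS tumors, 428 ± 44.2 on average (SD, n = 4). In the GLA-SE tumors it was 537, 646, 852 and 605, or 659.9 ± 135 (SD, n = 4). In the SE tumors it was 395, 438, 564 and 973, or 593 ± 264 (SD, n = 4). The GLA-SE group again lay wholly above PBS, with tumor 3 the highest, while in the SE group tumors 3 and 4 were above all PBS tumors and the rest lay among them.

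For G6pdx the deposited counts were 908, 872, 1000 and 967 in the PBS tumors. They were 1119, 1070, 1205 and 1178 in the GLA-SE tumors. They were 1110, 649, 820 and 852 in the SE tumors. The lowest GLA-SE tumor was above the highest PBS tumor, and the SE tumors spread on both sides of PBS. Scaled, G6pdx was 870.47, 821, 737 and 765 in the PBS tumors, a mean of 798 ± 59.6 (SD, n = 4). The GLA-SE tumors had 1071, 1100.1, 1291 and 1194, a mean of 1164 ± 99.4 (SD, n = 4). The SE tumors had 748, 686, 1020.1 and 1709.7, a mean of 1041 ± 469 (SD, n = 4). G6pdx had the tightest PBS and GLA-SE groups of the 3 genes, with coefficients of variation of 7.47% and 8.54%, and these groups did not overlap. The SE group, with a coefficient of variation of 45%, overlapped both.

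Gusb differed least. Its deposited counts were 994, 1166, 1186 and 1218 in the PBS tumors. They were 1254, 1276, 987 and 1196 in the GLA-SE tumors, and 1390, 870, 1072 and 876 in the SE tumors. The 3 groups overlapped as deposited, and GLA-SE tumor 3, the highest for Alas1 and G6pdx, was the lowest of its group for Gusb. After scaling, Gusb was 953, 1098, 874 and 963 in the PBS tumors, 972 ± 93.2 on average (SD, n = 4). It was 1201, 1312, 1057 and 1212 in the GLA-SE tumors, 1196 ± 105 on average (SD, n = 4). It was 937, 919, 1334 and 1758 in the SE tumors, 1237 ± 396 on average (SD, n = 4). Of the GLA-SE tumors 3 of 4 lay above all PBS tumors, and tumor 3 lay among them.

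**Figure D1:**
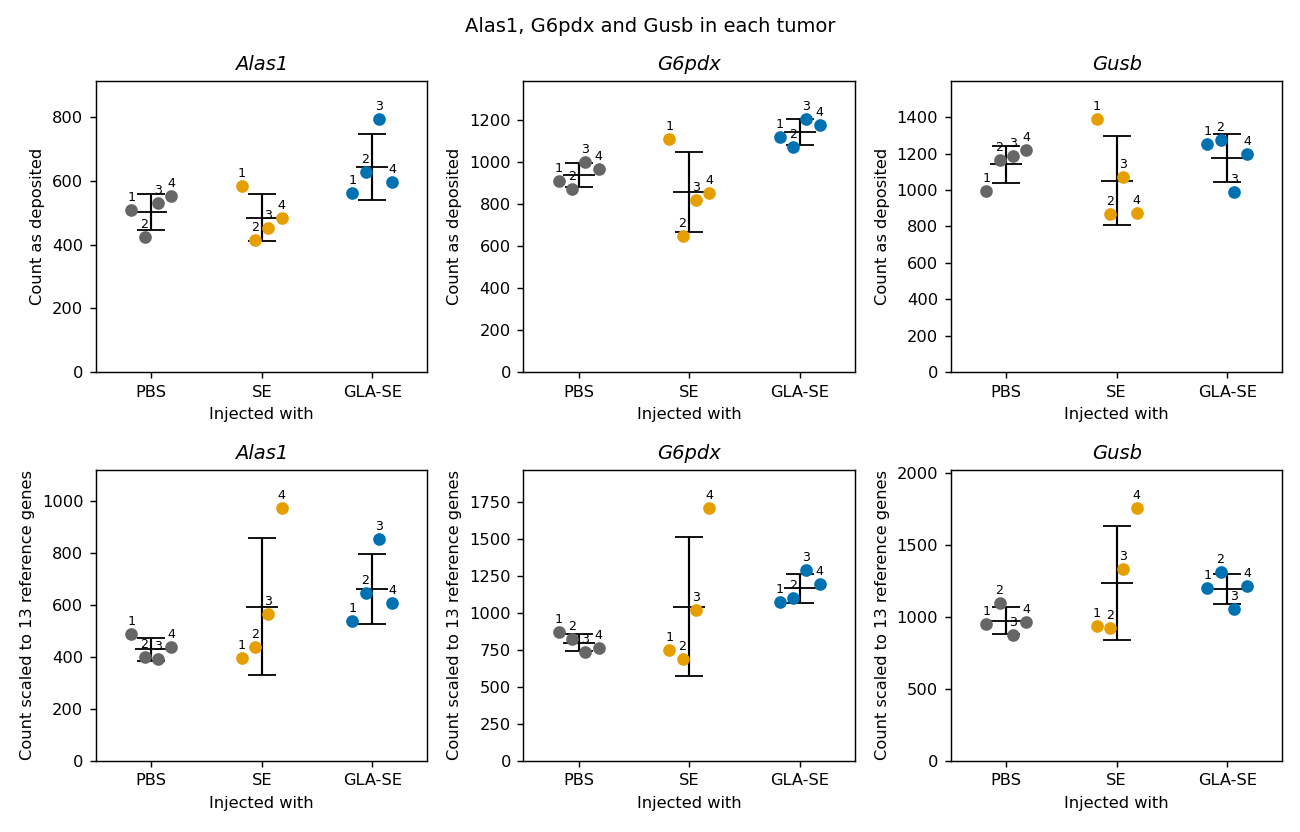
Counts of Alas1, G6pdx and Gusb in each tumor, as deposited (top row, counts) and scaled to the 13 reference genes (bottom row, scaled counts), by injection. Each numbered point is a tumor, the long bar is the mean and the whiskers are the SD (n = 4). The GLA-SE points of Alas1 and G6pdx lie above every PBS point in both rows, and those of Gusb overlap PBS. SE tumor 4 is at 973, 1709.7 and 1758 scaled counts, the highest of all. Scaled to the panel median, all 3 genes were instead lower in GLA-SE than in PBS. The median log2 fold change of the panel was also negative there, at -0.40.

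In GLA-SE against PBS, the log2 fold change from edgeR with the 13-gene scaling was 0.62 for Alas1 (standard error, s.e., 0.16, 54.1% higher), 0.54 for G6pdx (s.e. 0.10, 45.8% higher) and 0.30 for Gusb (s.e. 0.11, 23.0% higher). As deposited, without rescaling, the differences were 0.36, 0.29 and 0.046, but with the panel median, TMM or DESeq2's own size factors as the scale all 3 were lower in GLA-SE, at -0.65, -0.72 and -0.95 with the panel median. The groups did not overlap for 2 of 3, beside 62.4% of the 757 genes outside the scaling set as scaled and 44.5% as deposited. These shares are given for scale, since this contrast chose the genes. With the 13-gene scaling the median log2 fold change of the 750 panel genes was 0.87, and 61.6% of them were above Alas1, 64.8% above G6pdx and 80.5% above Gusb. The 3 genes thus stood between the other reference genes and the typical immune gene.

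The log2 fold changes of SE against PBS were 0.47 for Alas1 (s.e. 0.29), 0.38 for G6pdx (s.e. 0.29) and 0.35 for Gusb (s.e. 0.22), and all 3 genes overlapped between the groups, beside 8.59% of genes with every SE tumor above every PBS tumor. Without SE tumor 4 they were 0.12, 0.035 and 0.13. Scaled to the panel median, by TMM, to DESeq2's own size factors or not at all, each of the 3 was negative. With edgeR none of the 757 genes passed an adjusted p of 0.05 (0% called), while 138 (18.2%) had an unadjusted p under 0.05 and DESeq2 with the 13-gene size factors called 47 higher and 6 lower. In GLA-SE against SE the log2 fold changes were 0.16 (s.e. 0.32), 0.16 (s.e. 0.30) and -0.05 (s.e. 0.24) for Alas1, G6pdx and Gusb. All 3 overlapped, beside 14% of genes with every GLA-SE tumor above every SE tumor, and edgeR called 2.11% of the 757 genes higher (18.4% had an unadjusted p under 0.05). Without SE tumor 4 these differences were 0.50, 0.51 and 0.17. With the panel median as the scale they were -0.55, -0.51 and -0.77, beside a median of -0.46 over the panel.

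The other 17 reference genes moved less in GLA-SE against PBS. The 13 used for scaling ranged from -0.28 for Sf3a3, a splicing factor, to 0.17 for Sdha, a subunit of succinate dehydrogenase, and 1 of them (Sf3a3) lay wholly below PBS, as did 1.45% of the 757 genes tested. The 4 others, Eif2b4, Rpl19, Tbp and Tubb5, ranged from -0.22 for Tubb5, a beta-tubulin, to 0.12 for Rpl19, a ribosomal protein, and 2 of them (Eif2b4 and Tubb5) lay wholly below PBS. Sdha and Gusb are thus the genes on either side of the choice, at 0.17 and 0.30. In SE against PBS the 13 ranged from -0.24 for Eef1g to 0.20 for Sap130, below each of the 3 genes. In GLA-SE against SE they ranged from -0.21 for Sf3a3 to 0.34 for Eef1g, a range that held Alas1, G6pdx and Gusb. The ratio of a gene to another within a tumor needs no scaling factor. The 3 genes were chosen against 13 of the 17 other reference genes, however, so such ratios largely restate the choice. They are given as a description. The mean log2 ratio of Alas1 to each of the 17 was higher in GLA-SE than in PBS for 17 of 17, without overlap for 14. The same counts were 17 and 14 for G6pdx and 17 and 6 for Gusb. In SE against PBS the mean ratios were higher for 17 of 17 for each gene, all with overlap, and without SE tumor 4 for 14, 9 and 14 of 17. In GLA-SE against SE they were higher for 16, 16 and 10 of 17, all with overlap, and without SE tumor 4 for 17, 17 and 16, of which 4, 11 and 0 were free of overlap.

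**Figure D2:**
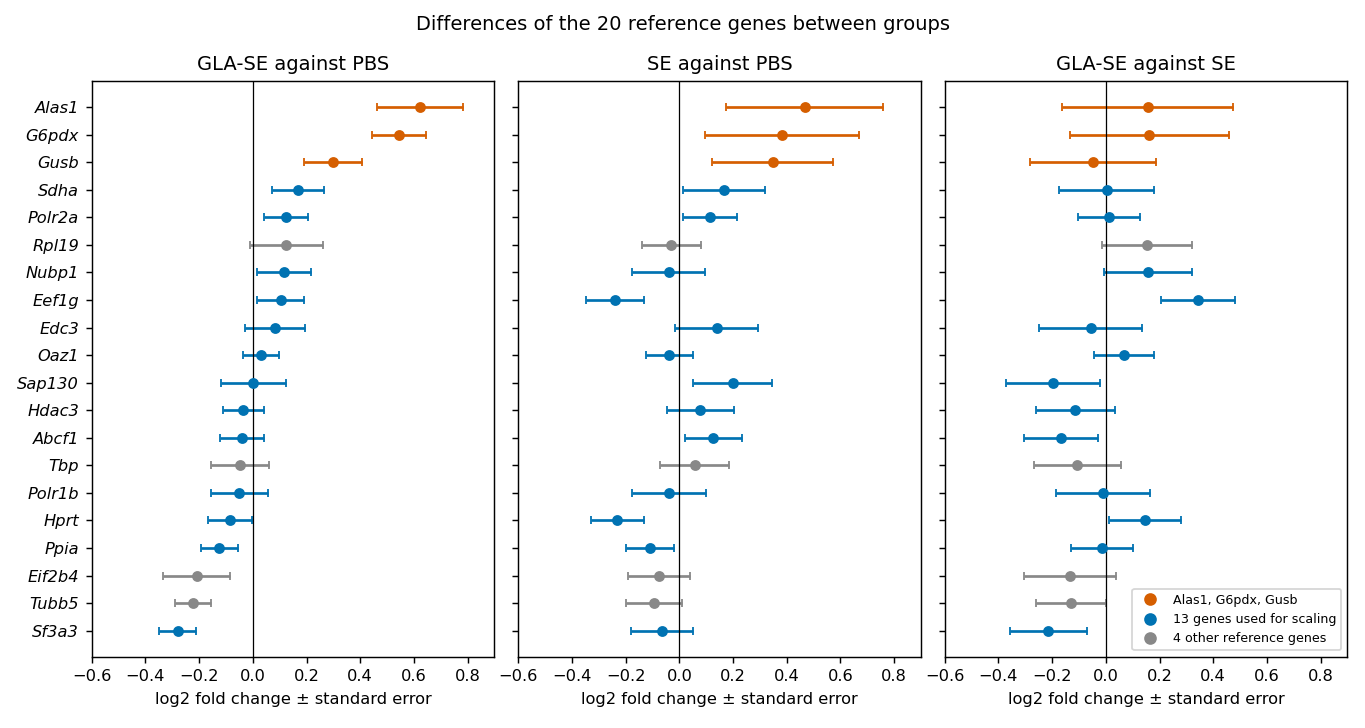
Log2 fold change with its standard error (horizontal axis) of each of the 20 reference genes (vertical axis) in the 3 comparisons, scaled to the 13 genes in blue. In GLA-SE against PBS, Alas1, G6pdx and Gusb (orange) lie at 0.62, 0.54 and 0.30, right of all other reference genes (-0.28 to 0.17). In GLA-SE against SE they lie among them. With the panel median as the scale all 3 turn negative in GLA-SE against PBS, but a change of scale moves all 20 genes of a tumor alike. The mean ratios of each of the 3 to the other 17, which need no scale, were higher in GLA-SE for 17 of 17.

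Reference genes are often ranked by geNorm's M, the mean SD of a gene's log2 ratios to the other reference genes, where a high M means an unstable gene. Over the 12 tumors M was 0.43 for Alas1, 0.40 for G6pdx and 0.32 for Gusb, the 3 highest of 20. This M includes the differences between groups by which the 3 genes were chosen, so a high place follows largely from the choice. It was 0.18 to 0.26 for the 13 scaling genes and 0.20 to 0.25 for the 4 others. Within the PBS tumors, where no difference between groups enters, the M of Alas1, G6pdx and Gusb was 0.15, 0.11 and 0.15, and they held places 3, 7 and 4 from the least stable. Within the GLA-SE tumors M was 0.30, 0.16 and 0.17, at places 1, 11 and 9. G6pdx and Gusb were therefore in the middle of the ranking among GLA-SE tumors, and Alas1 was its least stable gene. Within the SE tumors M was 0.56, 0.57 and 0.45, at places 2, 1 and 3. Without SE tumor 4 the 3 genes were still the least stable over the other 11 tumors, with M of 0.36, 0.32 and 0.25. The differences between groups enter these values too.

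Set against each other within a tumor, the 3 genes kept their proportions unevenly. The ratio of Alas1 to G6pdx counts was 0.537 ± 0.0386 in the PBS tumors, 0.572 ± 0.0479 in the SE tumors and 0.564 ± 0.0750 in the GLA-SE tumors (SD, n = 4 each). These groups overlapped, and SE tumor 4 did not stand apart, at 0.569. The ratio of Alas1 to Gusb was 0.444 ± 0.0611, 0.469 ± 0.0623 and 0.561 ± 0.165 in the same order. GLA-SE tumor 3 had 0.805 and the other GLA-SE tumors 0.447 to 0.499. The ratio of G6pdx to Gusb was 0.825 ± 0.0709, 0.821 ± 0.104 and 0.984 ± 0.169, again with GLA-SE tumor 3 the highest, at 1.22. No pair of groups was free of overlap in any of the 3 ratios.

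**Figure D3:**
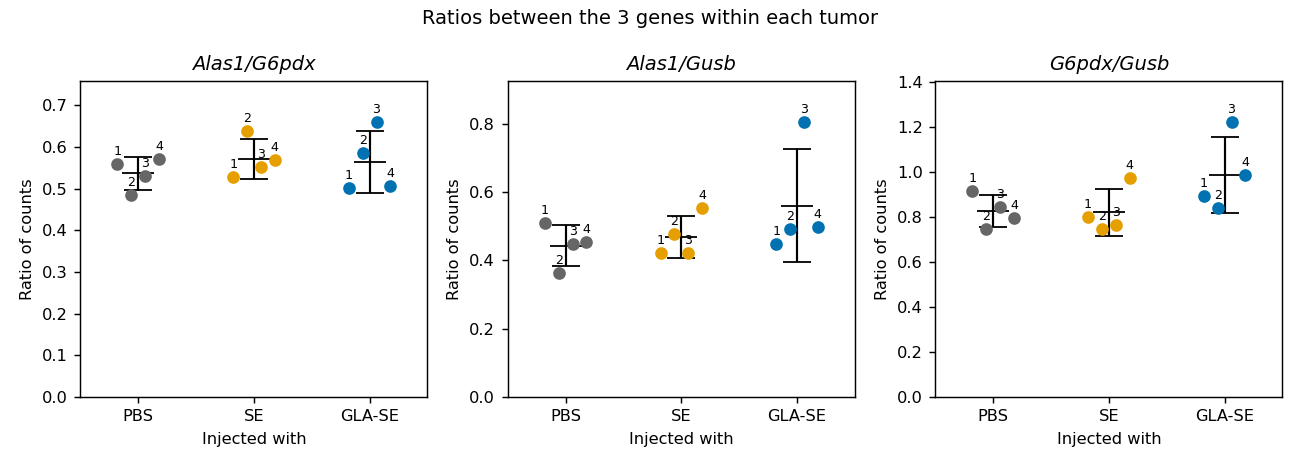
Ratio of deposited counts between pairs of the 3 genes within each tumor (vertical axis, ratio of counts) by injection. Numbered points are tumors, the long bar is the mean and the whiskers are the SD (n = 4). The Alas1 to G6pdx ratio is 0.537 to 0.572 on average in every group, while GLA-SE tumor 3 lies at 0.805 for Alas1 to Gusb and 1.22 for G6pdx to Gusb.

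The macrophage and monocyte list of 18 genes was examined next. In GLA-SE against PBS 17 of 18 were higher and 0 lower by edgeR's quasi-likelihood test at an adjusted p of 0.05, with a median log2 fold change of 1.51 beside 0.87 for the panel, and 506 of the 757 genes tested (66.8%) were called higher and 6 (0.793%) lower. Csf1r, the receptor for macrophage colony-stimulating factor, rose by 1.59 (s.e. 0.12, edgeR adjusted p = 0.000102), and Fcgr1, a high-affinity Fc receptor, by 2.59 (s.e. 0.23, edgeR adjusted p = 0.00016). Emr1, an adhesion receptor used as a macrophage marker, rose by 1.61, Cd68, a macrophage lysosomal membrane protein, by 1.34, and Mertk, a receptor for the uptake of dying cells, by 1.83. With the panel median as the scale 5 of 18 were called higher and 1 lower, with TMM 14 and 0, and with all 12 tumors in a single fit 10 and 0. The list was chosen with earlier results of these data known, so its calls are a description. The summed scaled count of the list was 33617 to 43005 in the PBS tumors, 94549 to 133320 in the GLA-SE tumors and 28967 to 124580 in the SE tumors. In SE against PBS and in GLA-SE against SE 0 of 18 passed with edgeR, and DESeq2 with the 13-gene size factors called 2 and 1. The adjusted p of Csf1r, Emr1, Cd68, Fcgr1 and Mertk in SE against PBS was 0.248 to 0.307 with edgeR.

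Across the 12 tumors, on log2(scaled count + 1), the correlation with Csf1r was 0.92 for Alas1, 0.95 for G6pdx and 0.86 for Gusb. With Cd68 it was 0.91, 0.94 and 0.86, and with Emr1 0.86, 0.92 and 0.83. With Fcgr1 it was 0.77, 0.84 and 0.78, and with Mertk 0.87, 0.85 and 0.69. The median over the 18 macrophage genes was 0.86, 0.90 and 0.83, against 0.79, 0.80 and 0.65 over 674 panel genes. Most of the panel thus followed the same line, and 14, 16 and 17 of the 18 genes were above the panel's median. The values share the 13-gene denominator, with whose log2 Alas1, G6pdx and Gusb correlated at -0.80, -0.79 and -0.85. With the panel median as the scale the median over the list was -0.50, -0.44 and -0.41, and with TMM it was -0.38, -0.34 and -0.50. As deposited, with no denominator, it was 0.59, 0.60 and 0.085, beside 0.60, 0.57 and 0.26 over the panel, so there the list was not above the panel for Alas1 and was below it for Gusb.

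The tumors fell into 2 sets of 6 by Csf1r, and the pooled values span the gap between them. The lower set held the 4 PBS tumors with SE tumors 1 and 2, and the higher set the 4 GLA-SE tumors with SE tumors 3 and 4. Within the lower set the median correlation with the macrophage list was 0.51 for Alas1, 0.68 for G6pdx and 0.25 for Gusb, beside 0.36, 0.36 and 0.0079 over the panel. Within the higher set it was 0.58, 0.69 and 0.51, beside 0.55, 0.52 and 0.19. Alas1 therefore followed the macrophage list little more than it followed the panel in the higher set, and the margin was wider for G6pdx and Gusb. That margin was not particular to macrophage genes. In the higher set the endothelium and fibroblast list, described below, had 0.66, 0.74 and 0.90, and the lysosome list 0.87, 0.77 and 0.63. The NK cell list was lower, at -0.08, -0.19 and -0.38. Csf1r, which set the split, is itself a gene of the macrophage list. With the group means removed the medians over the list were 0.82, 0.88 and 0.86, beside 0.79, 0.78 and 0.65 over the panel. With SE tumor 4 also left out the list had 0.65, 0.76 and 0.69, beside 0.62, 0.62 and 0.31. Spearman's rho over all tumors gave medians of 0.86, 0.87 and 0.79 for the list, beside 0.80, 0.80 and 0.64 over the panel.

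**Figure D4:**
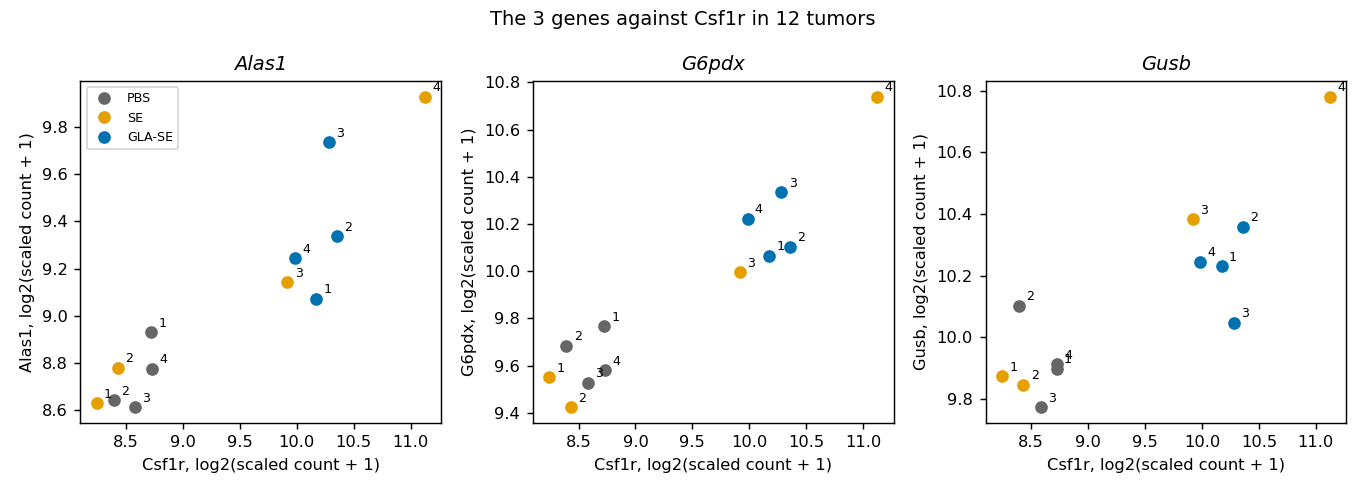
Alas1, G6pdx and Gusb (vertical axes) against Csf1r (horizontal axes), all as log2(scaled count + 1), in the 12 tumors, numbered within their group. The 6 tumors lower in Csf1r (PBS 1 to 4, SE 1 and 2) and the 6 higher (GLA-SE 1 to 4, SE 3 and 4) form separate clouds. Pooled correlations of 0.92, 0.95 and 0.86 join them, and both axes share the 13-gene denominator. With the panel median as the scale the median correlation with the macrophage list is -0.50, -0.44 and -0.41, beside 0.30, 0.27 and 0.30 over the panel.

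Lists of other cell types were read against the 66.8% of all genes called higher in the same contrast. In GLA-SE against PBS the endothelium and fibroblast list was higher for 9 of 9 genes (edgeR, median log2 fold change 1.12), the NK cell list for 5 of 6, the T cell list for 5 of 9, the neutrophil list for 4 of 8 and the dendritic cell list for 2 of 5, so that the shares of the T cell, neutrophil and dendritic cell lists were below that of all genes. The B cell list had 0 of 8 higher and 2 lower, with a median of -0.08. These directions depend on the scale: with the panel median, 0 of 9 endothelium and fibroblast genes were called higher and 1 lower, and 8 of 8 B cell genes were lower. The median correlation over the endothelium and fibroblast genes was 0.86 for Alas1, 0.88 for G6pdx and 0.89 for Gusb, beside 0.79, 0.80 and 0.65 over the panel. Without SE tumor 4 it was 0.76, 0.79 and 0.81, beside 0.82, 0.81 and 0.58, so that for Alas1 and G6pdx the list no longer exceeded the panel. For the B cell genes the median was -0.47, -0.53 and -0.45, and without SE tumor 4 it was -0.01, -0.17 and -0.17. For the 13 scaling genes it was 0.15, 0.12 and 0.18, and without that tumor -0.005, -0.07 and -0.009. Because each tumor is scaled to the geometric mean of these 13 genes, their deviations largely cancel. Their low medians are therefore built in and are no control for the cell type lists. Summed scaled counts of the endothelium and fibroblast list were 4079 to 9137 in the PBS tumors, 17963 to 26154 in the GLA-SE tumors and 3497 to 119580 in the SE tumors. No gene of these lists was at 3 deposited counts or less in every tumor of a group. The part of these cell types in the values of Alas1, G6pdx and Gusb was not tested.

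Of the pathways around each enzyme, the panel held few genes. For haem and iron, beside Alas1, 3 of 6 genes were higher in GLA-SE against PBS and 0 lower, a smaller share than the 66.8% of all genes, and with the panel median as the scale 1 was higher and 2 lower. Lrp1, the receptor that takes up haem bound to hemopexin, rose by 1.53 on the log2 scale (s.e. 0.16, edgeR adjusted p = 0.000235), and Hamp, which encodes the iron hormone hepcidin, by 1.01 (s.e. 0.32, edgeR adjusted p = 0.0221). Ptgs2, the haem enzyme cyclooxygenase-2, rose by 4.24 (s.e. 1.11, edgeR adjusted p = 0.00954), and by 2.17 without GLA-SE tumor 3. Hamp no longer passed when PBS tumor 1, PBS tumor 3 or GLA-SE tumor 3 was left out, and it was negative (-0.29) with the panel median as the scale.

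For glucose and NADPH, beside G6pdx, 4 of 6 genes were higher and 0 lower, about the 66.8% share of all genes. Nos2, the inducible nitric oxide synthase that consumes NADPH, rose by 2.69 (s.e. 0.66, edgeR adjusted p = 0.00756), and by 1.603 without GLA-SE tumor 3. Slc7a11, which imports cystine for glutathione, rose by 2.08 (s.e. 0.54, edgeR adjusted p = 0.00941), and by 1.29 without that tumor. Cybb and Ncf4, parts of the phagocyte NADPH oxidase, rose by 1.29 and 0.68, although Ncf4 was negative under panel median, TMM and DESeq2's own scaling. With the panel median 1 of the 6 genes was called higher and 3 lower. Gpi1, the glycolytic enzyme that acts on the same glucose-6-phosphate as G6pdx, did not pass, at 0.04 (s.e. 0.07).

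For the lysosome, beside Gusb, 9 of 10 genes were higher and 0 lower, beside 66.8% of all genes, with a median log2 fold change of 1.01 beside 0.87 for the panel, whereas with the panel median as the scale 2 were called higher and 4 lower. The proteases Ctsl and Ctss rose by 1.73 and 1.41, and Slc11a1, a metal transporter of the phagosome, by 1.77. The membrane proteins Lamp1 and Lamp2 rose by 0.92 and 1.08, against 0.30 for Gusb, and both were negative with the panel median as the scale. Tfeb, a transcription factor for lysosomal genes, did not pass, at 0.06 (s.e. 0.11). The median correlation over this list was 0.92 for Alas1, 0.93 for G6pdx and 0.80 for Gusb, the lysosomal enzyme among them. Over the panel it was 0.79, 0.80 and 0.65. With the panel median as the scale the list had 0.43, 0.53 and 0.57, beside 0.30, 0.27 and 0.30 over the panel. As deposited it had 0.76, 0.73 and 0.28, beside 0.60, 0.57 and 0.26. With TMM it had -0.20, -0.25 and -0.41, beside -0.01, -0.07 and -0.17. With the 13-gene scaling edgeR called 0 genes of these 3 lists in SE against PBS and in GLA-SE against SE, whereas without rescaling 2 glucose and NADPH genes and 1 haem and iron gene were called higher in GLA-SE against SE.

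The genes whose pattern was most like each of the 3 were ranked by Pearson's correlation over the 12 tumors, among 674 panel genes with a mean of at least 20 scaled counts. For Alas1 they were Jak1, Cd99, Tfe3, Atg7 and Abcb1a, at 0.97 to 0.98. For G6pdx they were Tgfb1, Ccl11, Atg7, Tnfsf14 and Mr1, at 0.97 to 0.98. For Gusb they were Cd34, Maf, Tnfsf12, Tnfrsf11b and Nrp1, at 0.95 to 0.96. With the group means removed Jak1, Abcb1a and Atg7 stayed among the 5 for Alas1, with Ifih1 and Gpr183. Ccl11 and Mr1 stayed for G6pdx, with Ifnar2, Cd1d1 and Tgfbr2, and Cd34, Maf and Tnfrsf11b for Gusb, with Irak4 and Clec4a2. The ranking rested partly on SE tumor 4. Without it the 5 for Alas1 were Mapkapk2, Stat3, Tlr2, Irak2 and Irf5, none of them among the 5 over all tumors, and those for G6pdx were Ifitm2, C5ar1, Ccl11, Cd1d1 and Ikbke, with only Ccl11 in common. For Gusb they were Tnfrsf11b, Nfatc4, Cd34, Clec4a2 and Maf. None of the 5 defining macrophage genes was in these lists. Between themselves Alas1 and G6pdx correlated at 0.95, G6pdx and Gusb at 0.86 and Alas1 and Gusb at 0.77, and without SE tumor 4 at 0.92, 0.75 and 0.59. With the group means also removed these fell to 0.77, 0.60 and 0.20.

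Because the 3 genes are on the panel to set the scale, the panel was also scaled with and without them. With the 17 other reference genes the median log2 fold change of the panel in GLA-SE against PBS was 0.89, with 516 genes called higher and 5 lower by edgeR. With the 13 it was 0.87 (506 higher, 6 lower), with all 20 it was 0.82 (479 higher, 13 lower) and with the 13 and the 3 together 0.78 (449 higher, 14 lower). Adding the 3 to the 13 thus moved the median from 0.87 to 0.78, with 449 rather than 506 genes called higher and 14 rather than 6 lower. With Gusb alone the median was 0.57 (269 higher, 22 lower), with G6pdx alone 0.33 (232 higher, 78 lower) and with Alas1 alone 0.25 (228 higher, 71 lower). In SE against PBS no reference set gave a call with edgeR, and the panel median went from 0.53 with the 17 to 0.07 with Alas1 alone. In GLA-SE against SE the number of genes called was 7 with Alas1 alone, 9 with G6pdx alone, 27 with Gusb alone and 16 to 23 with the larger sets.

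**Figure D5:**
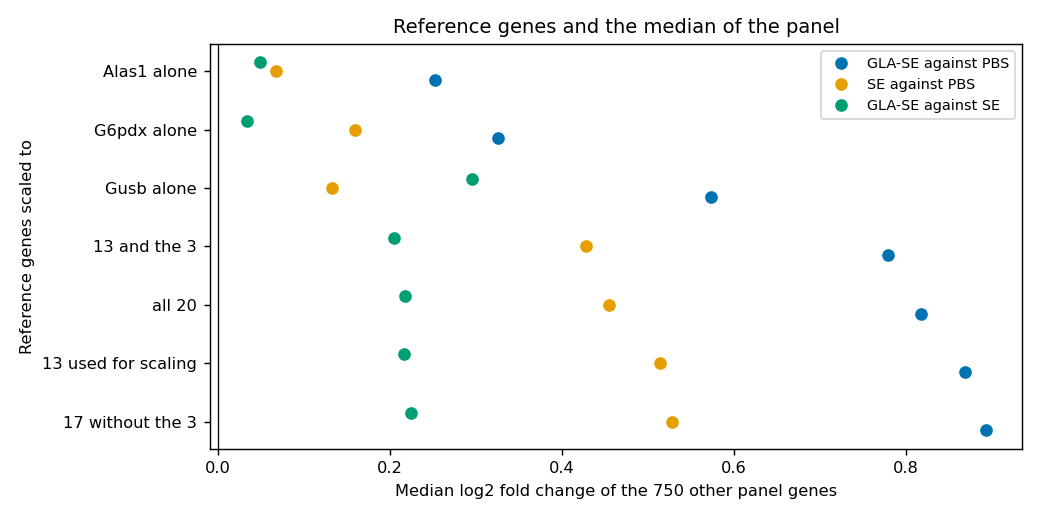
Median log2 fold change of the 750 panel genes (horizontal axis) in the 3 comparisons when the tumors are scaled to different sets of reference genes (vertical axis). In GLA-SE against PBS (blue) it falls from 0.89 with the 17 genes other than Alas1, G6pdx and Gusb to 0.25 with Alas1 alone.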

How the data were processed

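RNA of 12 whole tumors was measured with a mouse nCounter immune panel, and the authors deposited a table of counts for 770 genes. The methods describe nSolver normalization. The deposited values are whole numbers, however, with unequal totals and reference genes, and were treated as raw. Groups were taken from the sample labels, which give the injection and a replicate number. Each label was taken as a separate mouse. The paper gives 4 mice per group for its expression analysis, where it names no SE group. Counts were divided by a factor per tumor, proportional to the geometric mean of 13 reference genes. The other 757 genes were compared, with no filter on low counts, by edgeR 4.0.16 (quasi-likelihood test, R 4.3.3) with Benjamini-Hochberg adjustment and a threshold of 0.05, and each fit held the 8 tumors of 2 groups. Correlations used log2(scaled count + 1). The alternatives were other scalings, a filter of 20 counts in 4 tumors, all 12 tumors in a single fit, the replicate number as a block, DESeq2 1.42.0 and leaving out each tumor. Correlations within sets of tumors split by Csf1r, those with both the group means and SE tumor 4 removed, and ratios without that tumor were added after seeing the data. The scripts were also checked on simulated counts. Alas1, G6pdx and Gusb and all gene lists were chosen with earlier results of these data known. The named genes are these 3, the 5 most correlated with each (those without SE tumor 4 were added after seeing the data), the 5 defining macrophage genes and, in each pathway list, up to 4 with the largest change past the threshold. Lamp1, Lamp2, Tfeb and Gpi1 were named after their values were seen. Total counts of 810260 to 1612415 and 4 tumors per group limit the precision. Promoters were taken from RefSeq (GRCm38.p6), and figures were drawn with matplotlib 3.10.9.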

Additional observations from a re-analysis of the deposited data

Results flagged for a closer look

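In 33 sets of 4 tumors (11 quantities in 3 groups), the gap of the most distant tumor was compared with Dixon's critical value, which chance passes in about 5% of sets, or 1.65 here. It was passed in 2 sets, both through GLA-SE tumor 3. Fcgr1 was at 470.25 scaled counts in that tumor and at 692 to 731 in the other GLA-SE tumors. The ratio of Alas1 to Gusb counts was 0.805 there and 0.447 to 0.499 in the others.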

How the results depend on the processing

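The scale set the direction of the differences of Alas1, G6pdx and Gusb, which are given here in that order on the log2 scale. With the panel median they were -0.65, -0.72 and -0.95 in GLA-SE against PBS, -0.10, -0.21 and -0.19 in SE against PBS, and -0.55, -0.51 and -0.77 in GLA-SE against SE. TMM gave -0.13, -0.19 and -0.43 in GLA-SE against PBS, and -0.026, -0.12 and -0.11 in SE against PBS. DESeq2's own size factors gave -0.18, -0.24 and -0.48 and then -0.013, -0.11 and -0.097, with -0.43 for Gusb in GLA-SE against SE. Without rescaling they were 0.36, 0.29 and 0.046, and then -0.055, -0.13 and -0.12. Leaving out each tumor gave 0.48 to 0.71, 0.49 to 0.59 and 0.25 to 0.36 in GLA-SE against PBS, and in SE against PBS 0.12 to 0.62, 0.035 to 0.54 and 0.13 to 0.47, lowest without SE tumor 4. In GLA-SE against SE it gave 0.0045 to 0.50, 0.0069 to 0.51 and -0.17 to 0.17, highest without SE tumor 4.

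The median correlation of the macrophage list with the 3 genes was -0.50, -0.44 and -0.41 with the panel median, -0.38, -0.34 and -0.50 with TMM and 0.59, 0.60 and 0.085 without rescaling. Over the panel the medians were 0.30, 0.27 and 0.30, then -0.01, -0.07 and -0.17, then 0.60, 0.57 and 0.26. Within the tumors lower in Csf1r the list had 0.51, 0.68 and 0.25, and within those higher in Csf1r 0.58, 0.69 and 0.51. Without group means and SE tumor 4 it had 0.65, 0.76 and 0.69. Leaving out each tumor gave 0.84 to 0.88, 0.89 to 0.92 and 0.80 to 0.88.

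In GLA-SE against PBS 506 genes were called higher and 6 lower by edgeR with the 13 genes. The calls were 61 higher and 315 lower with the panel median, 193 and 137 with TMM, 201 and 155 with DESeq2's own size factors, and 253 and 0 with all 12 tumors in a single fit. All 20 reference genes gave 13 lower and no rescaling 21 lower. Leaving out each tumor gave 431 to 491 higher and 3 to 8 lower, with 3 lower without PBS tumor 4. Of the 18 macrophage genes 5 were higher with the panel median and 10 with all 12 tumors in a single fit, and 17 whichever tumor was left out. Ncf4 was at -0.60 with the panel median, -0.075 with TMM and -0.12 with DESeq2's own size factors, and Hamp at -0.29 with the panel median.

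For SE against PBS, where edgeR called 0 genes, DESeq2 called 47 higher and 6 lower with the 13 genes, with 2 macrophage genes among them, and 6 higher and 5 lower with its own size factors. Leaving out each tumor gave 0 calls with edgeR. In GLA-SE against SE 16 genes were called higher and 0 lower. The calls were 0 higher with the panel median, 3 with TMM, 89 higher and 1 lower without rescaling, 74 and 2 with all 12 tumors in a single fit, 100 and 7 with DESeq2 and the 13 genes, and 54 and 23 with its own size factors. Of the macrophage genes 4 were higher without rescaling and 1 with DESeq2 and the 13 genes. Leaving out each tumor gave 8 to 99 higher and 0 to 1 lower, with 0 to 2 macrophage genes, with 99 higher without SE tumor 4 and 8 to 10 without GLA-SE tumor 2 or 4 or SE tumor 1, 2 or 3.

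Tumors with the same replicate number did not deviate together, with correlations of -0.253 to 0.178, and the main fits did not pair them. Such correlations cannot show that the numbers carry no pairing. With the replicate number as a block 432 genes were higher and 3 lower in GLA-SE against PBS, 0 were called in GLA-SE against SE, and Hamp no longer passed. The causes of these differences were not tested.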
